A study of Drosophila melanogaster with 8 samples.

Results

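The ovaries and testes of Drosophila melanogaster were compared together with the somatic tissues of the same series, to ask which genes are higher or lower in both gonads than in every other tissue sampled. The comparison used all 8 libraries of the series, 2 gonad libraries (ovaries and testes) and 6 somatic libraries (eyes, heads and salivary glands, each from females and from males). All flies were of the wild-type Oregon R strain, reared at 25 °C, with no transgene or treatment, and the protocol describes adults collected on days 5 to 7 after hatching. Each library was made from total RNA, reverse-transcribed and amplified with primers for the 5′ and 3′ ends of quick-to-court (qtc) transcripts (RACE, rapid amplification of cDNA ends), but most of its reads came from other genes. Each tissue and sex has 1 library. The error in every test below is therefore the spread between the 2 gonads and among the 6 somatic libraries, not the spread between animals, and the labels do not say how many animals were pooled. Of 14292 genes with counts summed over their transcripts, 1620 reached 10 or more counts in at least 2 libraries and were compared.

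The ovary and the testis differ in their cells and their product, but both hold germline stem cells, cells dividing by mitosis and then by meiosis, and somatic cells that wrap the germ cells. Germ cells of both sexes silence transposons through small RNAs called piRNAs, and they store messenger RNA in protein particles for translation later on. Eyes and heads are made largely of cells that no longer divide, and the larval salivary gland copies its DNA without dividing and secretes glue proteins.

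Estimated counts per library ran from 88471 in testes to 152222 in female salivary glands, with 151167 in ovaries. Levels are given as CPM, the count as a share of all counts in the library, scaled by the TMM method, and a gene with no count could have had up to 3 counts, which is 15.1 CPM in ovaries, 42.4 in testes and 17.8 to 27.6 in the somatic libraries on that scale. Such limits cover counting error only. Reads at the qtc locus were 0.937% (female eyes) to 8.001% (male eyes) of mapped reads. Levels of all other genes thus come from libraries amplified with qtc primers. How closely they follow RNA levels in the tissue was not tested. Genes annotated as ribosomal RNA took 1.94% of counts in ovaries and 5.98% in testes, against 7.86% to 23.9% in the somatic libraries. The genes compared held 62.0% of the counts in testes and 91.5% to 96.3% in the other libraries. Genes that reached 10 counts in testes alone (391) or in ovaries alone (260) could not enter, and the counts they held were not summed. RNA from bulk tissue cannot tell fewer cells of a type from less RNA per cell.

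Marker lists were summed in every library to check the tissue labels. Phototransduction genes made up 5.49% to 19.7% of counts in eyes and heads and at most 0.0521% elsewhere, and salivary gland genes such as Sgs5, which encodes a glue protein, made up 2.54% to 2.9% in the salivary glands and at most 0.0964% elsewhere. The eggshell list took 16.3% of counts in ovaries, but also 8.37% in female eyes, against 0.0152% to 0.06% in the other 6 libraries. Cp15, an eggshell protein, had 23566 counts in ovaries, 11807 in female eyes and 20 to 45 elsewhere. Female eyes also held 72 counts of the germline gap junction gene zpg and 18 of png, a kinase of the egg, which had 114 and 32 counts in ovaries and at most 1 in any other library. The spermatogenesis list took 1.48% of counts in testes and 0.37% in female heads, where Mst98Ca had 458 counts against 234 in testes. The fat body list, of which 16 of 19 genes were compared, took 18.2% to 18.9% of counts in the salivary glands, 0.635% to 1.59% in eyes and heads, and 0.0849% to 0.243% in the gonads, where its members Fbp1 and Lsp1alpha had no count. How far these transcripts of other tissues enter the comparisons was not tested. Counts without the female eye and female head libraries are given below. Those without female eyes stand beside many of the lists whose outcome they change, but not all. The salivary gland libraries carry larval glue genes and larval serum proteins, and the labels do not give the stage of those donors apart from the general protocol.

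**Figure D1:**
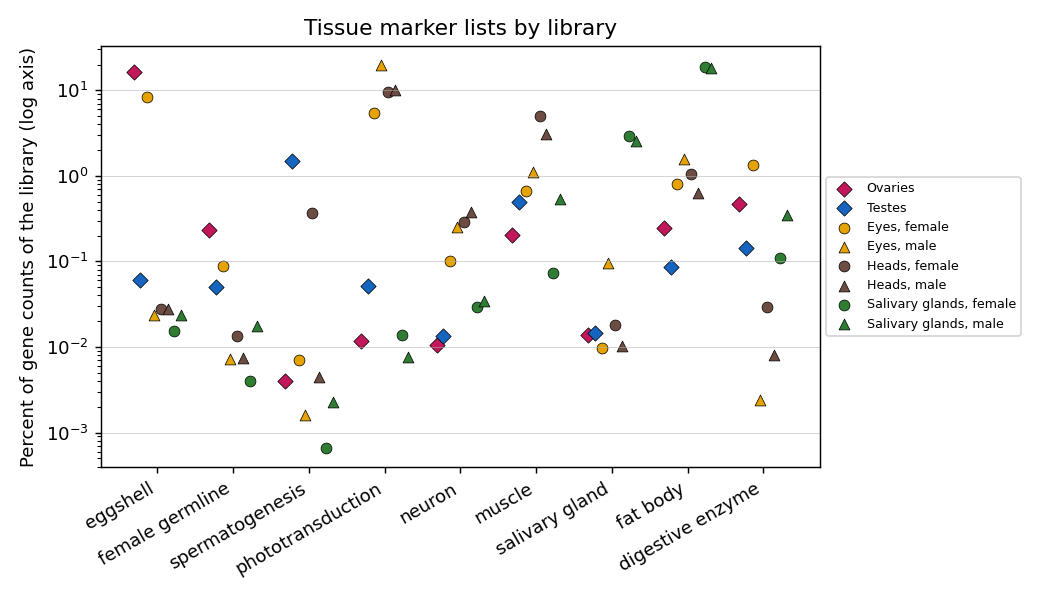
Share of each library's gene counts, in percent on a log axis, held by tissue marker lists, with 1 point per library. Female eyes stand at 8.37% for the eggshell list, next to 16.3% in ovaries, and female heads at 0.37% for the spermatogenesis list, next to 1.48% in testes.

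In 107 genes both gonads stood above the highest of the 6 somatic libraries, and in 122 genes both stood below the lowest. These counts are 6.6% and 7.53% of the 1620 genes compared. The margin was at least 2-fold for 22 of the genes above and 42 of the genes below, or 1.36% and 2.59% of all compared. No gene passed edgeR's quasi-likelihood test with Benjamini-Hochberg adjustment at 0.05 (0% in each direction). The smallest edgeR adjusted p was 0.166, shared by 35 genes, and 277 genes had an unadjusted p under 0.05, 114 of them higher in gonads and 163 lower. Limma-voom called 0 genes too, and its unadjusted p was under 0.05 for 164. With DESeq2, 41 genes were called higher and 104 lower in gonads (3.14% and 7.96% of the 1307 genes to which it gave an adjusted p), of which 26 and 63 were among the genes outside all somatic libraries. The values that follow are thus descriptions of these 8 libraries, and no gene named is called by the main test.

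The gonads also differed from each other. Taken alone, ovaries stood above all somatic libraries in 298 genes (18.4%) and testes in 317 (19.6%), and below them in 281 (17.3%) and 288 (17.8%). In 36 genes ovaries stood above and testes below every somatic library, and in 31 genes the reverse held. Against the somatic mean, both gonads were on the higher side in 366 genes, both on the lower side in 636, and on opposite sides in 618. The median log2 fold change over all genes compared was -0.42, so the zero of the scale lies above the typical gene. It was -0.31 with library totals in place of TMM.

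**Figure D2:**
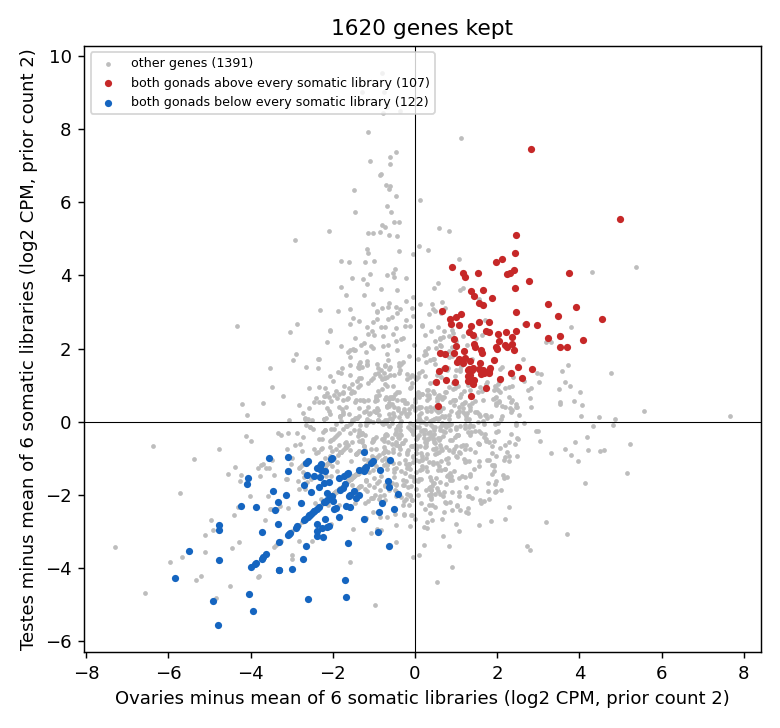
Each of the 1620 genes compared is 1 point, placed by its level in ovaries (x axis) and in testes (y axis) minus the mean of the 6 somatic libraries, in log2 CPM with a prior count of 2. Colours mark the 107 genes above and the 122 genes below every somatic library, which lie in the upper right and lower left corners.

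The genes with the widest margin above the somatic tissues included a receptor for the extracellular matrix, a glutathione transferase, a mitochondrial carrier and genes with a known part in the germline. Dg encodes dystroglycan, a membrane receptor that ties the cytoskeleton to the extracellular matrix and is known for its part in the polarity of the egg chamber and the oocyte. It stood at 545 CPM in ovaries and 678 in testes, against 7.01 and 142 in female and male eyes, 6.1 and 35.6 in heads, and 8.32 and 46.1 in salivary glands. Both gonads were thus at least 3.58 times the highest somatic library, male eyes, and the fold change was 3.89 ± 1.08 (log2, SE, 2 libraries against 6; edgeR adjusted p = 0.169).

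CG18190, a gene without a name of its own, had the widest margin, 4.39-fold. It reached 1430 CPM in ovaries and 2130 in testes, while the somatic libraries ran from 0 in male eyes to 315 in female eyes. Without female eyes the highest somatic library would be male salivary glands, at 111 CPM. Its log2 fold change was 4.53 ± 1.47 (edgeR adjusted p = 0.243).

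GstO1, an omega-class glutathione transferase (chromosome 3L, 8523742 to 8524866, minus strand, BDGP6), stood at 333 CPM in ovaries and 212 in testes. Its somatic levels were 35.0 and 50 in female and male eyes, 24.4 and 5.94 in heads, and 8.32 and 0 in salivary glands. GstO1 also differs from most of the detoxification genes described below, which were lower in the gonads. Shawn, a mitochondrial carrier protein (chromosome X, 19611526 to 19615617, plus strand), stood at 288 CPM in ovaries and 226 in testes, against 9.22 to 54.9 in the somatic libraries, with a log2 fold change of 3.23 ± 0.75 (edgeR adjusted p = 0.166). Nop17l, whose yeast namesake helps assemble the particles that modify ribosomal RNA, stood at 363 and 1260 CPM against 27.6 to 98.1, with a log2 fold change of 3.73 ± 0.77 (edgeR adjusted p = 0.166).

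Several of the 12 genes with the widest margin above are known from the germline or from organelle translation. The gene stil (stand still), needed for female germ cells, stood at 278 CPM in ovaries and 155 in testes. It had 35.0 CPM in female eyes, 9.22 in male salivary glands and no count in the other 4 somatic libraries. The piRNA pathway gene squ (squash; chromosome 2L, 16680054 to 16681653, plus strand) stood at 70.6 CPM in ovaries and 283 in testes, with 14 in female eyes, 11.9 in male heads and none elsewhere. Those levels rest on 14 and 20 counts in the gonads. The gene sip2 had 33 counts over both gonads and 2 over all somatic libraries, a ratio of 50.5 with a 95% counting interval of 12.9 to 435. The mitochondrial ribosomal protein gene mRpS26 stood at 792 and 664 CPM, 3.02 times or more the highest somatic library. CG8303, CG4069 and CG9933 complete the 12, with margins of 3.27, 3.22 and 2.68-fold. GstO1, Shawn, stil, CG8303, sip2, squ and CG9933 reached the count minimum through the gonads alone. A high gonad level was thus built into the selection of these 7. Of the 12, CG18190, Shawn, Nop17l, CG8303, CG4069, sip2 and squ overlap the span of another annotated gene on either strand. Whether this affects their counts was not tested.

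**Figure D3:**
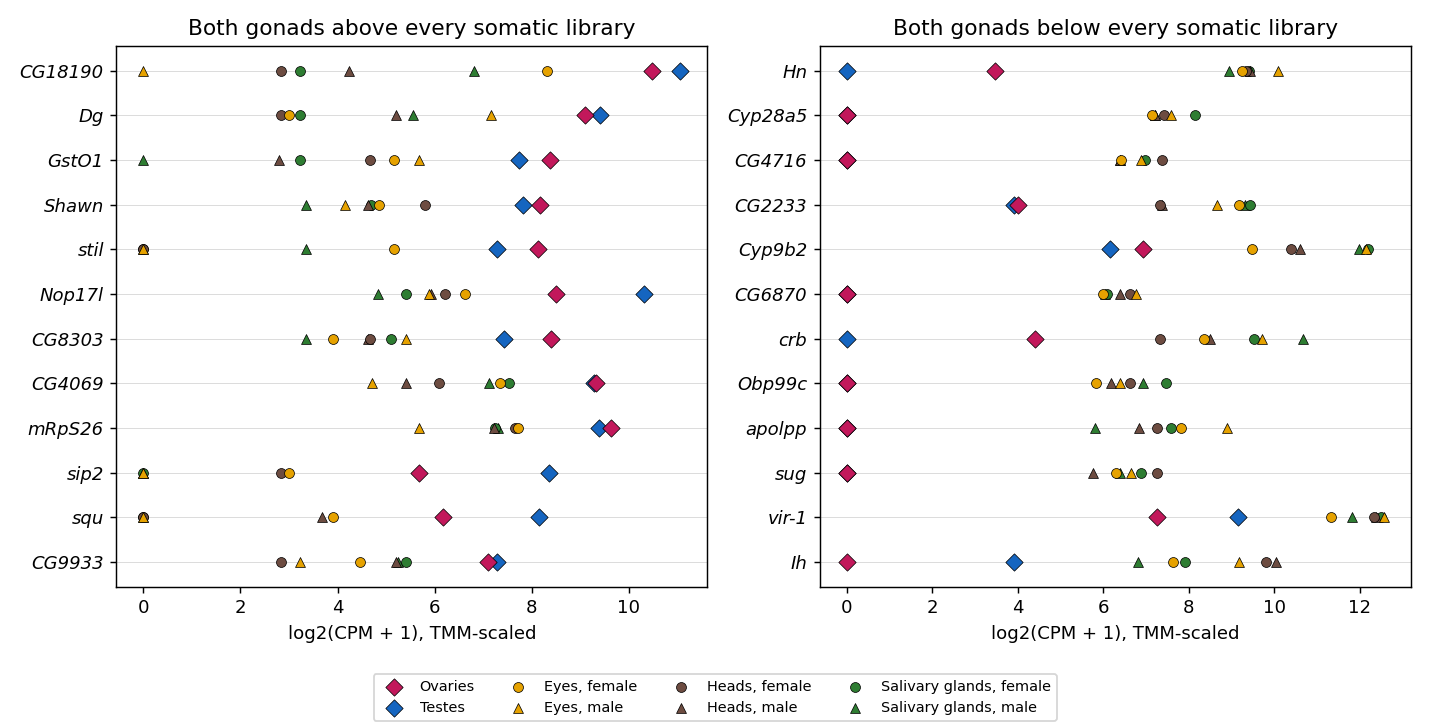
Level of the 12 genes with the widest margin in each direction, in log2(CPM + 1), with 1 point per library and diamonds for the gonads. On the left both diamonds lie to the right of every somatic point, and on the right both lie to the left.

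The nuclear transport list had 5 of 25 genes compared, and 3 of them, Ran, Nup62 and Pen, stood above all somatic libraries, against 6.6% of all genes. The list's median log2 fold change was 1.79, against -0.42 over all genes. Without female eyes the same 3 stood above. Ran, the small GTPase that gives transport its direction, stood at 540 CPM in ovaries and 876 in testes, against 283 and under in 5 somatic libraries, and its highest somatic level was in male salivary glands. Pen, an importin alpha that is needed in germ cells, stood at 187 in ovaries and 4990 in testes, so that both gonads were above the somatic range of 0 to 91.1 while differing widely from each other. Nup62, a protein of the central pore channel, stood at 384 and 184 CPM, above 18.4 to 147.

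In a list of spliceosome and snRNP assembly genes, put together after the values were known, 5 of the 9 genes compared stood above every somatic library and all 9 had a positive fold change, with a median of 1.47 (log2). Over all genes compared the share above was 6.6%. Without female eyes 6 of 8 genes of the list stood above. Since the list was drawn up from these libraries, the count is no independent evidence of its direction. The 5 are snf, Sf3b5, Slu7, Smn and Usp39. The gene snf, which encodes a protein of the U1 and U2 particles and is known for its part in sex-specific splicing in germ cells, stood at 283 CPM in ovaries and 551 in testes, against 16.7 to 110. Sf3b5, a subunit of the U2 particle, stood at 358 and 622, against 46.1 to 203. In the mRNA processing list, snf was the 1 of 6 genes compared that stood above, and the median was 0.95. Smn, which loads the ring of Sm proteins onto small nuclear RNAs, stood at 90.8 and 523, against 0 to 63.1. It reached the count minimum through the gonads alone, so a high gonad level was built into its selection. The list's summed share was 0.446% of counts in ovaries and 0.255% in testes, with 0.234% in female eyes and 0.043% to 0.0959% in the other 5 somatic libraries.

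RNA polymerase II and the mitochondrial ribosome were also represented, again in lists drawn up after the values were known. Among 12 genes for RNA polymerase subunits and general transcription factors, Polr2E and Polr2H stood above all somatic libraries, against 6.6% of all genes. In this list 11 had a positive fold change, and the median was 1.15. Without female eyes 3 of 8 stood above. Polr2H stood at 2620 CPM in ovaries and 932 in testes, against 50 to 547. Among 9 mitochondrial ribosomal protein genes, mRpS26 and mRpS6 stood above (3 of 8 without female eyes), all 9 were positive, and the median was 0.95. The 73 cytosolic ribosomal protein genes compared did not share this: none stood above all somatic libraries, 1 (RpL28) stood below, and the median was -0.67. Testes and ovaries differed in them, with 5.46% of counts in testes and 15.6% in ovaries. The somatic libraries ran from 6.9% in male eyes to 23.4% in female salivary glands, so testes lay below that range and ovaries within it.

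Chromatin genes stood on both sides. Of 13 genes compared from the histone and chromatin list, Nap1, Nlp and Ssrp stood above every somatic library and HmgZ below, with a median log2 fold change of 1.21. The shares were 23.1% above and 7.69% below, against 6.6% and 7.53% of all genes. Without female eyes 5 of 9 stood above and 2 below. The list also holds CRMP, an enzyme of the dihydropyrimidinase family, which did not stand outside. Ssrp, a subunit of the FACT complex that opens nucleosomes for polymerases, stood at 272 CPM in ovaries and 325 in testes, against 0 to 147. Nap1, a histone chaperone, stood at 141 and 170 against 8.34 to 77.1. HmgZ, which encodes a DNA-bending protein, stood at 60.6 and 56.5 CPM, under the somatic range of 98.1 to 457. Of 22 proteasome and ubiquitin genes 1 (Prosbeta6) stood above, and of 12 chaperone genes 1 (p23), with medians of 0.59 and 0.31. These shares, 4.55% and 8.33%, were near the 6.6% of all genes. Without female eyes 3 of 20 and 2 of 10 stood above. Of 21 translation factors eIF4G2 stood above, at 167 and 1340 CPM against 16.6 to 122, eIF3g1 stood below, and the median was 0.08. Without female eyes eIF3g1 no longer stood below and eEF1delta stood above.

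Few genes of the germline lists had enough counts to be compared. Over all genes compared 6.6% stood above every somatic library. Of 31 genes known from the germline of both sexes, 4 were compared. Besides squ, tral stood above every somatic library, at 227 CPM in ovaries and 339 in testes against 0 to 105, and it encodes a protein of germline RNA particles. The other two, zpg and csul, did not stand outside. The meiosis list had 2 genes compared, of which sub stood above and mei-38 did not. The gene sub, a kinesin of the meiotic spindle, stood at 90.8 and 339 CPM against 0 to 28.0 (log2 fold change 4.48 ± 1.21, edgeR adjusted p = 0.166). Of 4 female germline genes compared, exu alone stood above. It localises RNA in the oocyte and is also used in the testis, and stood at 95.9 CPM in ovaries and 240 in testes. Female eyes held 91.1 CPM of exu and the other 5 somatic libraries none. Without female eyes zpg was no longer compared, and squ, tral, sub and exu still stood above. The genes squ and sub reached the count minimum through the gonads alone, so a high gonad level was built into their selection. Without female eyes the same held for tral and exu.

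Of the dividing cell few genes were compared, 4 of 49 listed for the cell cycle and 4 of 43 for DNA replication and repair. None of these stood above all somatic libraries, although the list medians were 1.7 and 1.65 (log2). With 6.6% of all genes compared above, a count of 0 among 4 does not set either list apart. CycB, a mitotic cyclin, stood at 3780 CPM in ovaries and 1710 in testes. Female eyes had 2230, and the other somatic libraries 0 to 203. Mcm5, a helicase subunit, stood at 767 and 155 CPM, with 413 in female eyes, 175 in male salivary glands and 0 to 74.8 elsewhere. Without female eyes 3 cell cycle genes were compared and CycB stood above, with a median of 0.81, and 2 replication genes were compared and RfC3 stood above, with a median of 3.15.

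Female eyes were the highest somatic library for 49 of the 107 genes above (45.8%), and for 22% of all genes compared. With both the female eye and female head libraries left out, a setting added after the data were seen, 146 genes stood above all remaining somatic libraries and 167 below, of 1315 compared, and they included 98 of the 107 and 103 of the 122. EdgeR still called none.

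The 12 genes with the widest margin below included enzymes, a lipid carrier protein, an ion channel, a transcription factor and a polarity protein, each with counts in all 6 somatic libraries. Of the 12, 10 reached the count minimum through somatic libraries alone, Hn among them, so a low gonad count was built into their selection. Likewise 7 of the 12 genes of widest margin above reached it through the gonads alone. Hn (Henna; chromosome 3L, 7760453 to 7763166, plus strand), the phenylalanine hydroxylase that also serves eye pigment synthesis, stood at 10.1 CPM in ovaries and 0 in testes. Its somatic levels were 603 and 1080 in female and male eyes, 646 and 694 in heads, and 674 and 488 in salivary glands. With 2 counts over both gonads and 572 over the somatic libraries it was 93.4-fold lower in the gonads, with a 95% counting interval of 25.7 to 773. The edgeR adjusted p was 0.166.

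Cyp28a5 and Cyp9b2, cytochrome P450 enzymes of the family that oxidises toxins and hormones, were also among the 12. Cyp28a5 (chromosome 2L, 13977302 to 13979569, plus strand) had no count in either gonad. It stood at 140 and 192 CPM in female and male eyes, 171 and 148 in heads, and 283 and 147 in salivary glands, so it was at least 15.9-fold lower in the gonads with 3 counts over both gonads as the floor. Cyp9b2 stood at 121 CPM in ovaries and 70.6 in testes, against 708 to 4670 (log2 fold change -4.85 ± 1.38, edgeR adjusted p = 0.178). Another P450 gene below every somatic library, outside the 12, was Cyp9f2, at 95.9 and 155 CPM against 336 to 875.

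The apical polarity protein crb (crumbs; chromosome 3R, 24295078 to 24314541, plus strand) stood at 20.2 CPM in ovaries and 0 in testes. It stood at 329 and 834 in female and male eyes, 159 and 362 in heads, and 740 and 1640 in salivary glands. The virus-induced gene vir-1 stood at 151 and 565 CPM against 2560 to 6020, so it was well detected in the gonads too (log2 fold change -3.73 ± 1.15, edgeR adjusted p = 0.211). The cation channel gene Ih had 1 count over both gonads and 461 over the somatic libraries, a ratio of 150 with a counting interval of 26.9 to 5960. The odorant-binding protein gene Obp99c and sug, a transcription factor gene that responds to dietary sugar, had no count in either gonad and were each at least 8.71-fold lower. CG4716 and CG6870, also with no gonad count, were at least 9.9-fold and 7.29-fold lower. CG2233 stood at 15.1 and 14.1 CPM against 159 to 690. Among the genes of widest margin below, CG6870, Obp99c, apolpp and sug overlap the span of another annotated gene.

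Many of the 122 genes rest on few gonad counts. Both gonads had no count for 28 of them, and 92 passed the count minimum through the somatic libraries alone, so that a low gonad count was built into their selection. Of the 107 genes above, 18 passed through the gonads alone. Where 10 or more counts were asked of each library of the higher class, a setting added after the data were seen, 99 genes stood above and 47 below.

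Genes of lipid synthesis, storage and transport formed a list put together after the values were known, so its count is no independent evidence of its direction. Of 11 genes compared, 8 stood below every somatic library, against 7.53% of all genes, none stood above and all 11 had a negative fold change, with a median of -3.09 (log2), or -2.99 with genes of no gonad count set at their bound. FASN1, the fatty acid synthase, stood at 131 CPM in ovaries and 56.5 in testes, against 1970 and 1440 in female and male eyes, 2390 and 2170 in heads, and 316 and 147 in salivary glands. Without the female eye library FASN1 no longer stood below every somatic library, and 8 of the 11 genes did, Lsd-1 in its place. Npc2h, of the sterol-binding Npc2 family, stood at 373 and 1460 against 3550 to 10800. The gene apolpp, the protein core of the lipid carrier lipophorin, had no count in either gonad and 55.3 to 475 CPM elsewhere, at least 17.6-fold lower. Desat1, Dgkepsilon, Lpin, PAPLA1 and fabp were the others. The list's summed share was 0.134% and 0.162% in the gonads and 0.641% to 1.87% in the somatic libraries.

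The fat body list shares apolpp, FASN1 and Lpin with these genes. Of its 16 genes compared 4 stood below, the fourth being Adh (alcohol dehydrogenase), at 55.5 CPM in ovaries and 0 in testes against 92.2 to 1220. The 4 are 25% of those compared, against 7.53% of all genes. The median of the list was -5.75, or -4.48 with genes of no gonad count at their bound. Its larval serum protein genes, such as Lsp2 at 155000 and 158000 CPM in the salivary glands, did not stand below every somatic library, because eyes or heads overlapped the gonads in them. Without female eyes Lsp2 and fon stood below, and FASN1 did not. The yolk protein gene Yp2 was the member with a positive fold change, at 1400 CPM in ovaries, 2960 in female eyes, 1190 in female heads and at most 28.3 elsewhere.

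Amino sugars and chitin, cell polarity and junctions, and peptide hormones were covered by 3 further lists drawn up from these values. Over all genes compared 7.53% stood below every somatic library. In the hexosamine and chitin list 4 of 9 stood below, with all 9 negative and a median of -1.92. Gfat1, which makes glucosamine phosphate at the entry of the pathway, had 0 CPM in ovaries and 42.4 in testes, against 63.1 to 809. In the polarity and junction list 7 of 11 stood below, 10 were negative and the median was -2.2. Without female eyes 4 of 10 stood below. Among them shot, a linker of actin and microtubules, had no count in either gonad and 27.6 to 238 CPM elsewhere, at least 11.8-fold lower. In the peptide hormone list 4 of 7 stood below, Ilp5, Ilp6, Nplp2 and Phm, with a median of -6.86, or -4.41 at the bound. Ilp5, an insulin-like peptide made in the brain and in follicle cells of the ovary, had 0 CPM in ovaries and 28.3 in testes. It stood at 1490 and 759 in eyes, 3350 and 5100 in heads, and 66.5 and 194 in salivary glands. Phm, which amidates peptide hormones, stood at 126 and 28.3 against 329 to 600.

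Detoxification genes stood on both sides. Of 22 compared, Cyp28a5, Cyp9b2, Cyp9f2 and Ugt301D1 stood below every somatic library, GstO1 and GstD1 stood above, 5 were positive, and the median was -1.88. The shares were 18.2% below and 9.09% above, against 7.53% and 6.6% of all genes. GstO1 reached the count minimum through the gonads alone. GstD1 was close to the somatic range, at 187 and 170 CPM against 83.1 to 166, and did not stand above without female eyes. Mitochondrial genes were read by genome. Of 6 genes of the mitochondrial genome compared, mt:CoII, mt:CoIII and mt:Cyt-b stood below every somatic library and the median was -1.52. The gene mt:CoII stood at 90.8 and 127 CPM against 129 to 834. Without female eyes only mt:Cyt-b stood below. Of 31 nuclear genes for oxidative phosphorylation, ND-B15 and SdhA stood above and Cyt-c1 below, and the median was -0.23. These shares, 6.45% and 3.23%, were no higher than the 6.6% and 7.53% of all genes. SdhA, which reached the count minimum through the gonads alone, cleared the somatic range by 1.01-fold. Without female eyes none of the 31 stood outside. Glycolysis genes had 1 of 21 below, the aldolase Ald1, and a median of -1.05. Of 10 vacuolar proton pump genes Vha16-1 stood below, though not without female eyes, and the median was -0.22.

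Lists that mark a single somatic tissue differed in how many of their genes stood below every somatic library. The share was 0% for phototransduction and salivary gland genes, 11.1% for neuron, 14.3% for muscle and 66.7% for glia genes. None of the 19 phototransduction genes compared stood below every somatic library, although their median was -6.95, or -6.18 at the bound. The main rhodopsin gene ninaE had no count in either gonad or either salivary gland library, and 1170 to 5540 CPM in eyes and heads. None of the 13 salivary gland genes stood below, with a median of -8.99, or -5.53 at the bound. Over all genes compared 7.53% stood below. Of 9 neuron genes Syt1 stood below, with a list median of -5.85, or -3.16 at the bound. Syt1 had 299 and 350 CPM in female and male salivary glands and 7.01 to 65.3 in eyes and heads. Of 14 muscle genes Mlc2 and Strn-Mlck did, with a median of -2.35. Of 3 glia genes alrm and Gs2 did, and alrm, an astrocyte gene, had 24.9 and 212 CPM in salivary glands next to 561 and 962 in heads. None of 8 digestive enzyme genes and neither of 2 clock genes stood outside. None of 9 genes of the cytoskeleton list did, with a median of 0.96, and none of 4 eggshell or 2 spermatogenesis genes. Without female eyes Cp15, the 1 eggshell gene then compared, stood above, as did Jon25Biii of 5 digestive enzyme genes. Sgs8 of 13 salivary gland genes then stood below. No gene of the accessory gland and Y-linked lists had enough counts to be compared.

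**Figure D4:**
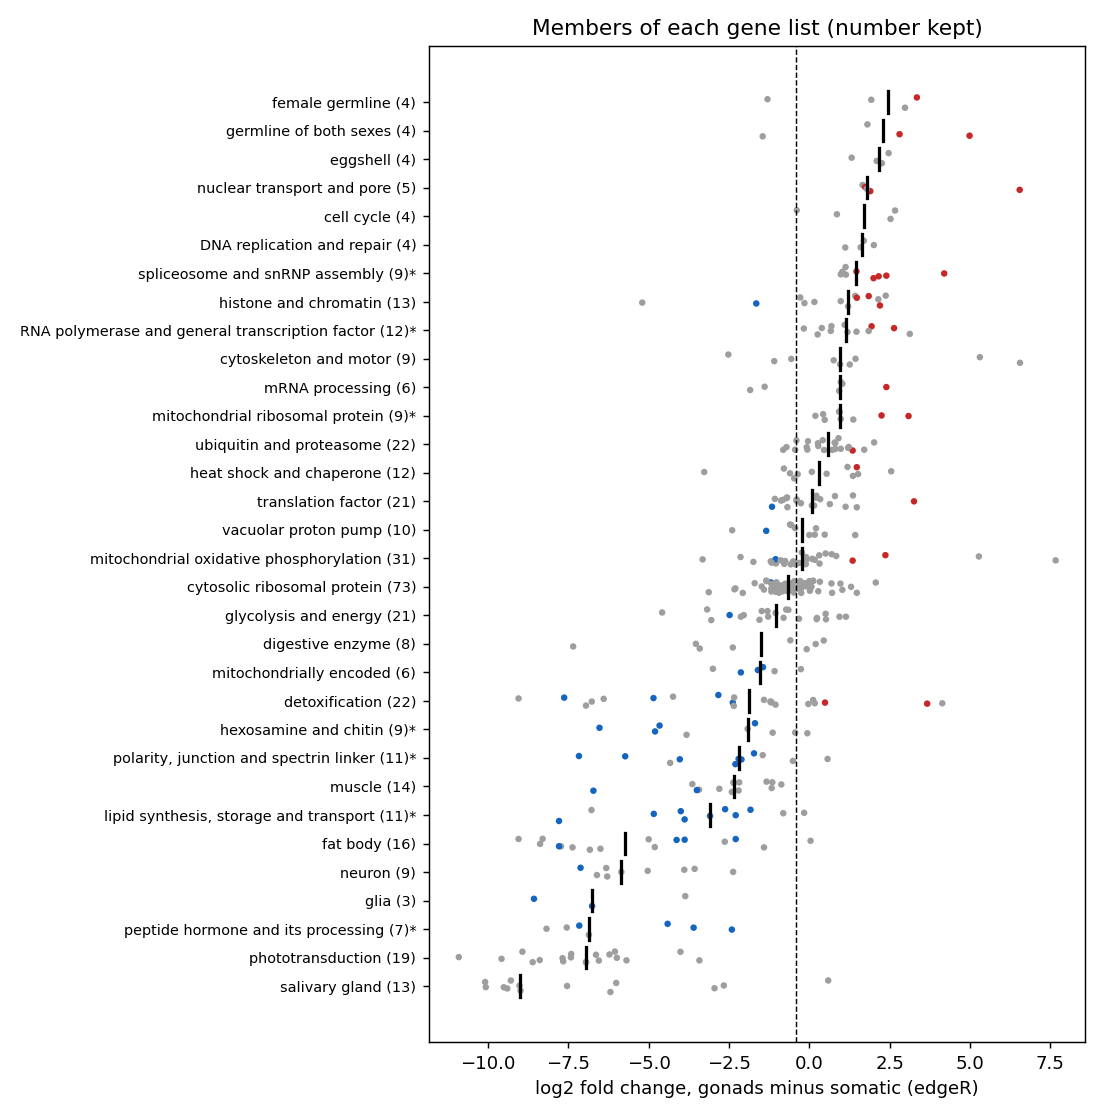
Log2 fold change, gonads minus somatic, of each member of the gene lists, with 1 point per gene compared (red above, blue below every somatic library, grey neither), a bar at the list's median, a dashed line at the median of all genes (-0.42) and an asterisk on lists drawn up after the values were known. Nuclear transport, spliceosome and mitochondrial ribosome genes lie to the right (medians 1.79, 1.47 and 0.95) and lipid, peptide hormone and phototransduction genes to the left (-3.09, -6.86 and -6.95). Values of genes with no gonad count depend on the prior count and are no bound.

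Gene structure and position were read for both sets from the annotation. The 107 genes above had a median longest transcript of 1592 bases and 3 exons, against 2018 bases and 4 exons for the 122 below, and 1844 bases and 4 exons for all genes compared. Single-exon genes made up 5.61%, 10.7% and 10.1%. The X chromosome held 8 of the genes above (7.48%), 20 of those below (16.4%) and 16.5% of all, while chromosome arm 2R held 32.7%, 21.3% and 23.3%. All 107 and all 122 are annotated as protein-coding. The share that overlaps another annotated gene was 53.3% in each of the 3 sets, and median levels were close, at 127, 130 and 104 CPM over the 8 libraries. These shares are descriptions and were not tested.

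The genes at the edge show how narrow the condition can be. The last gene counted above was maf-S, with a ratio of 1.0 between the lower gonad and the highest somatic library, and the first left out was Ate1, at 0.998. On the lower side Cyt-c1 was the last counted and euc the first left out, both at 1.0 after rounding.

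The gene qtc, for which the libraries were enriched, did not separate gonads from the other tissues in level. It stood at 2540 CPM in ovaries, below every somatic library, and 15600 in testes, within the somatic range of 5200 to 27600. Its log2 fold change was -0.49 ± 1.06 (edgeR adjusted p = 0.828), and it was 0.14 without ovaries and -2.31 without testes. Because qtc was amplified with its own primers, these levels also carry the enrichment.

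Transcript usage was tested in 304 genes with 705 transcripts, and no gene passed edgeR's test (0%). The smallest edgeR adjusted p was 0.366, for qtc, and 19 genes had an unadjusted p under 0.05. A Simes combination of the transcript tests called 0 genes too, with 3 at an unadjusted p under 0.05. Without the female eye library qtc passed, with an edgeR adjusted p of 0.000325, and without ovaries CG13585 (0.00394) and Ubi-p5E (0.0375) did. Among 98 genes with 10 or more counts in every library, 0 had a main transcript shared by both gonads that was not the main one in any somatic library.

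The transcripts qtc-RI, qtc-RB and qtc-RG had no count in either gonad. With 503 and 1106 qtc counts in ovaries and testes, a count of 0 allows shares of up to 0.596% and 0.271%. Together they made up 5.16% of qtc counts in female eyes and 92.3% in male eyes, 91.4% and 75.3% in female and male heads, and 41% and 4.74% in female and male salivary glands. Each gonad had another main transcript, qtc-RN in ovaries at 59.7% and qtc-RL in testes at 53.7%. The gonads shared qtc-RN, with 13.6% in testes, and so did female eyes with 14.4%, while the other 5 somatic libraries had none. The transcript qtc-RL had counts in testes alone and could not enter the test.

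**Figure D5:**
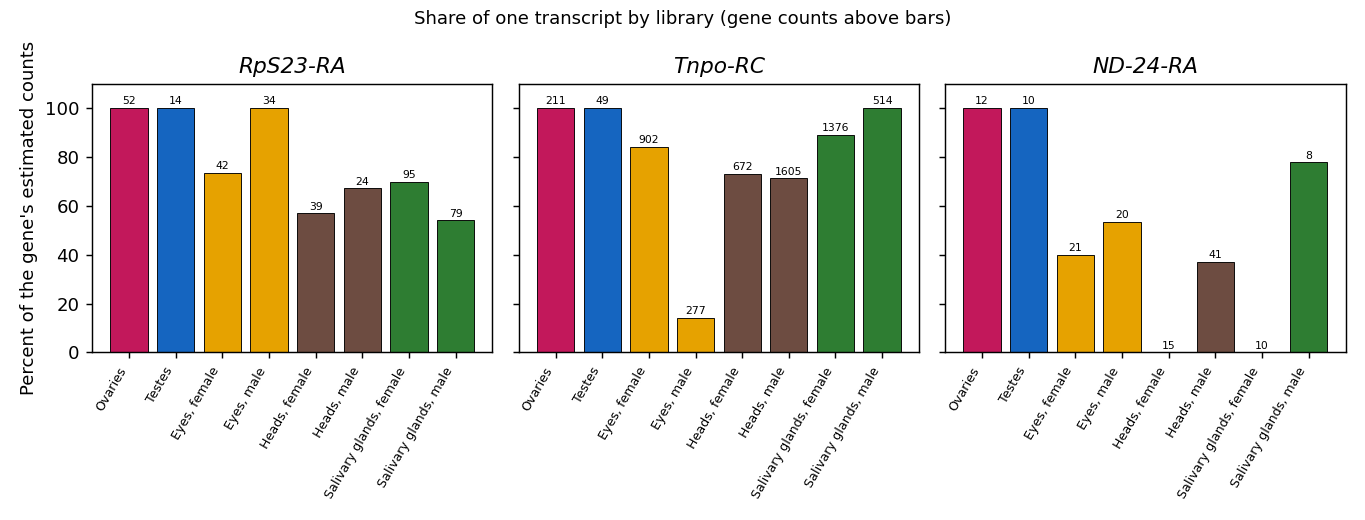
Share of 1 transcript in the counts of its gene, in percent, for each library, with the gene's counts above the bars. The plotted transcripts of RpS23, Tnpo and ND-24 reach 100% in both gonads, and in some somatic libraries other transcripts of the gene share the counts.

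In 3 of the next genes both gonads showed 1 transcript where most somatic libraries also held another. RpS23-RA, of a cytosolic ribosomal protein gene, held 100% of the counts in both gonads and in male eyes. In the other 5 libraries it held 54.1% to 73.5%. In ovaries and testes it had 51.6 and 14.5 estimated counts, so a share of another transcript could go unseen there. Tnpo-RC, of the nuclear import receptor transportin, held 100% in both gonads and in male salivary glands, and 14.3% to 89.1% elsewhere. ND-24-RA, of a subunit of respiratory complex I, held 100% in both gonads and 0% to 77.8% in the somatic libraries, with 12.2 and 10.1 estimated counts in ovaries and testes. The unadjusted edgeR p was 0.00613 for RpS23, 0.0086 for Tnpo and 0.0125 for ND-24. The edgeR adjusted p was 0.707 for each, as for fbl, so none passed the test.

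Where the gonads parted by sex was tested as the interaction of tissue class and sex. EdgeR called 0 of 1620 genes (0%), and the smallest edgeR adjusted p was 0.986. DESeq2 called 11, and 76 genes had an unadjusted edgeR p under 0.05. The genes of smallest p included CkIIbeta2, a testis form of a casein kinase subunit, with 1338 counts in testes, 0 in ovaries and 27 in female heads. Cdlc2, a dynein light chain gene, stood at 2900 CPM in testes, 0 in ovaries and 67.1 in female heads. CG33704 and CG10089 had 1295 and 97 counts in testes and 0 in ovaries, with 13 and 10 in female heads.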

How the data were processed

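Per the submitters' processing notes, reads were aligned with minimap2 and quantified with Salmon against BDGP6. The deposited tables give, per transcript and library, the authors' estimated counts and TPM, and a read summary gives counts of reads per library. Only the estimated counts were tested. Transcripts were matched to genes with Ensembl release 115 of BDGP6 (31048 of 31089, unmatched share at most 0.535% of a library), summed per gene and rounded. Genes with 10 or more counts in 2 libraries were tested with edgeR 4.0.16 (TMM, full library totals, robust quasi-likelihood F test, gonad against somatic, 6 residual degrees of freedom, Benjamini-Hochberg at 0.05). DESeq2 1.42.0 and limma 3.58.1 in R 4.3.3 were alternatives. "Above" and "below" compare log2 CPM with a prior count of 2. The interaction with sex left 4 residual degrees of freedom. Transcript usage was tested with edgeR on transcripts with 10 or more counts in 2 libraries. Scripts were tested on simulated data. Named genes are the 12 of widest margin per direction, up to 4 of smallest p per list, the 5 of smallest p for usage and for the interaction, and qtc. Other members outside all somatic libraries were named after their values were seen. Members and lists were chosen with earlier results of these data known. No sequence is printed, as sequence tables were not used here.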

Additional observations from a re-analysis of the deposited data

Results flagged for a closer look

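In 5 of the genes named by the stated rule the ovaries stood on one side of all 3 female somatic libraries and the testes on the opposite side of all 3 male ones. The difference between the sexes was tested as an interaction in edgeR, and no gene passed. CG33704 had 0 counts in ovaries and 1295 in testes, with an interaction of -15.68 (log2, ovaries minus testes, a fitted value that depends on the prior count and is no bound; edgeR adjusted p = 0.986). The ubiquitin ligase gene hyd had 0 counts in ovaries and 6 in testes, with a fitted interaction of -7.4 (edgeR adjusted p = 0.986). CycG, a cyclin gene, had 748 counts in ovaries and 13 in testes, with an interaction of 5.0 (edgeR adjusted p = 0.986). The splicing factor gene Prp19 had 112 and 3 counts, with an interaction of 2.48 (edgeR adjusted p = 1.0). The ubiquitin ligase scaffold gene Cul1 had 6 and 47 counts, with an interaction of -3.9 (edgeR adjusted p = 0.986).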

How the results depend on the processing

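No analysis paired by replicate was possible, as each tissue and sex has 1 library and no replicate numbers pair libraries of the 2 classes. Sex could be fitted as a covariate, and the smallest edgeR adjusted p was then 0.331. EdgeR called 0 genes in each direction with DESeq2 size factors, library totals, a minimum in 4 libraries, sex as a covariate, sexes summed within a tissue, rRNA-named genes left out, any 1 library left out, or both salivary gland libraries left out. With no filter on low counts it called 316 higher and 93 lower of 9962 genes, and 301 genes stood above and 247 below, including 62 of the 107 and all 122; the cause was not tested. DESeq2 called 41 higher and 104 lower, and 11 genes for the interaction. Without both salivary gland libraries 181 genes stood above and 321 below, of 1417 compared. Without female eyes and female heads 146 stood above and 167 below, and the cause of the difference was not tested. With the sexes summed 264 stood below, with a margin of 2-fold 22 above and 42 below, and with 10 counts in each library of the higher class 47 below. Leaving out 1 library gave 105 to 288 genes above and 126 to 289 below, the high values without ovaries or without testes, when 1 gonad alone has to stand outside. For transcript usage it gave 0 to 2 genes. List medians moved beyond their spread when 1 library was left out for eggshell (-4.31 to 8.32), digestive enzymes (-6.6 to -0.72), germline of both sexes (0.64 to 3.29), cell cycle (-0.04 to 2.27), DNA replication (0.84 to 3.15), mRNA processing (-1.75 to 2.08), cytosolic ribosomal proteins (-2.2 to -0.15), translation factors (-0.95 to 0.19), hexosamine (-4.11 to -1.69) and polarity genes (-3.54 to -2.16). Of 2690 fits of the 152 named genes, 17 had the other sign, none of them among the 24 of widest margin, whose choice fixes their direction. Depth limits genes below: testes can miss a gene under 42.4 TMM-scaled CPM.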
